A study of Mus musculus with 11 samples.

Results

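The response of CD41- haematopoietic stem cells of the mouse to the loss of circulating platelets was measured by comparing 3 libraries made 24 h after platelet depletion with 3 libraries from control mice. These 6 libraries were chosen by their labels alone, out of 11 in the series, and every gene with enough counts entered the comparison, which left 13448 of 49585 entries. All mice were of the C57BL/6 strain. The control mice had received rabbit serum. The sources used here name neither the agent that removed the platelets nor the age of the animals. From bone marrow, cells without lineage markers that carried c-Kit and Sca-1, lacked CD48 and carried CD150 were sorted and then divided by CD41 on their surface. Each library was made from 1000 cells pooled from 3 mice, and the labels call the libraries biological replicates. The other 5 libraries came from CD41+ cells of control (2 libraries) and depleted (3 libraries) mice and are used below for the spread of the data and for comparison.

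Haematopoietic stem cells replace all blood cells, and most of them rest outside the cell cycle in the adult marrow. Some are biased toward the megakaryocyte lineage, whose cells shed platelets, and surface CD41 marks a fraction rich in megakaryocyte transcripts. Thrombopoietin, a cytokine that acts through JAK-STAT signalling, keeps stem cells at rest and drives megakaryocyte growth. Its level in blood rises when platelets are lost, since platelets take it up.

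CD41- stem cells carried higher levels of cell division transcripts after platelet depletion. Of 46 genes with a part in mitosis, 42 were higher after depletion and 0 lower. Of 38 DNA replication genes, 21 were higher and 0 lower. Socs2, a feedback inhibitor of JAK-STAT signalling, rose 3.97-fold. The megakaryocyte transcripts Pf4 and Gp5 fell from mean levels of 42.8 and 23.8 to 7.79 and 4.51 in counts-per-million (CPM, counts of a gene scaled to the library total). In all, 429 genes passed an adjusted p of 0.05 in edgeR's quasi-likelihood test (3.19% of those tested). Of these 309 were higher (2.3%) and 120 lower (0.892%), and 197 and 74 of them changed at least 2-fold. For none of the 429 did the 3 depleted and the 3 control libraries overlap. Over all genes tested, 12.9% had all depleted libraries above all control libraries and 12.1% had them below.

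**Figure D1:**
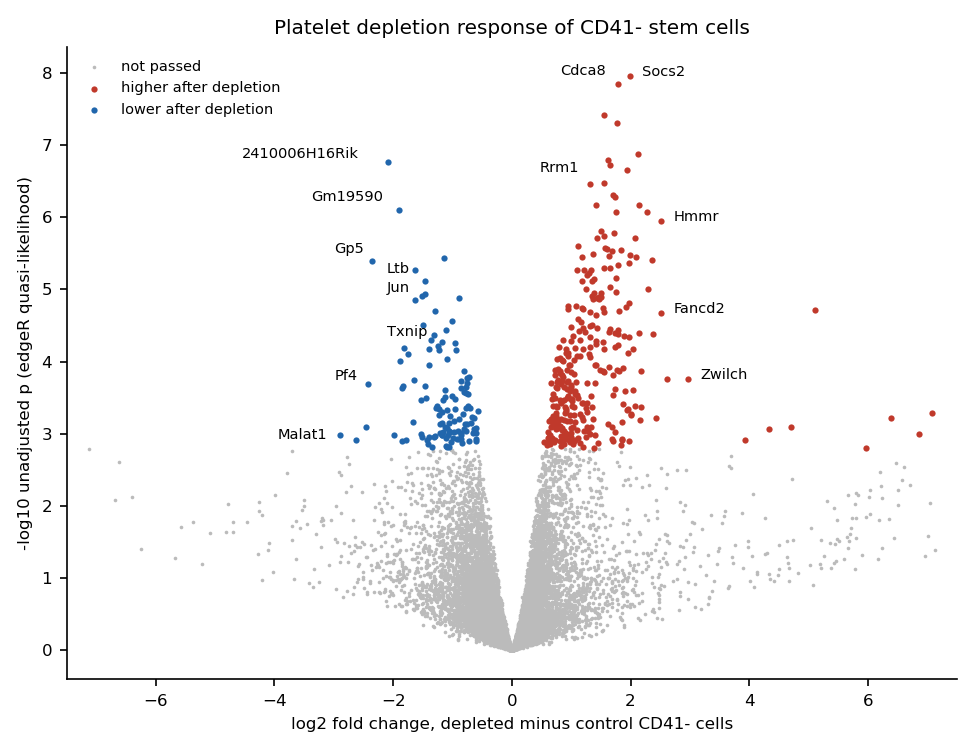
Each point is 1 of 13448 genes, with the log2 fold change of depleted minus control CD41- cells on the x axis and the -log10 of the unadjusted p of edgeR's quasi-likelihood test on the y axis. The 309 genes higher after depletion (red) outnumber the 120 lower ones (blue), and 5 genes that did not pass lie outside the x axis, which ends at 7.5 in both directions.

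The 6 libraries held 3459754, 3872376 and 3878931 counts (control replicates 1, 2 and 3) and 9950423, 4532371 and 4168395 counts (depleted replicates 1, 2 and 3). A floor of 3 counts stood for between 0.306 CPM in the deepest library and 0.825 CPM in the shallowest. These floors take in counting error alone, because PCR copies were not told apart by molecular identifiers. Levels below are CPM scaled by TMM (trimmed mean of M values) factors, fold changes are on the log2 scale with a standard error (SE), and p-values are from edgeR, adjusted by Benjamini-Hochberg over all genes tested. Levels are per library and not per gene length, so they are compared between samples and not between genes. In pooled bulk RNA, a smaller number of cells of a kind and less RNA in each cell cannot be told apart. The pools of depleted and control mice are different animals, and the p-values measure the spread between such pools.

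The sorted identity was checked with markers. The sort genes Kit, Ly6a (Sca-1), Cd48, Slamf1 (CD150), Itga2b (CD41) and Ptprc (CD45) did not pass between depleted and control cells. Itga2b, the closest to passing, stood at 98.5, 46.1 and 62.5 CPM in control and 44.4, 37.5 and 44.7 CPM in depleted CD41- libraries (log2 -0.71 ± 0.24, adjusted p = 0.145). All of these lay below the 169.8 to 424.6 CPM of the CD41+ libraries. All 12 stem cell markers, among them Hlf, Mecom and Procr, were detected, and their summed level was 4010 to 4645 CPM in control and 2576 to 3243 CPM in depleted cells.

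Transcripts of other blood cells were also present, and they did not follow the groups evenly. The summed level of 15 neutrophil markers such as S100a8, Ngp and Ltf was 9231, 14900 and 15940 CPM in the control libraries and 39230, 4680 and 22710 CPM in the depleted ones. Depleted replicate 2 was thus the lowest of all 6 libraries and depleted replicates 1 and 3 were the highest. Macrophage and monocyte markers had the same order at the ends, with 803 CPM in depleted replicate 2 and 3562 and 2477 CPM in depleted replicates 1 and 3, against 1538 to 1838 CPM in control libraries. Of 5 eosinophil markers tested, all had a positive fold change, and their sum was 10.2, 3.40 and 0.730 CPM in control against 763, 4.82 and 323.5 CPM in depleted libraries. The defining eosinophil genes Epx and Ear1 were at 0 in depleted replicate 2 and in control replicates 2 and 3. Stromal markers reached 413.9 CPM in depleted replicate 3 alone, through Cxcl12 at 284.5 CPM, and stood at 16.8 to 41.6 CPM in the other 5. Erythroid markers were at 1373 and 1833 CPM in replicate 1 of control and depleted cells and at 269.3 to 411 CPM in the other 4 libraries. None of the 10 erythroid, 15 neutrophil, 13 macrophage, 5 eosinophil or 10 stromal markers passed the test between depleted and control cells.

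**Figure D2:**
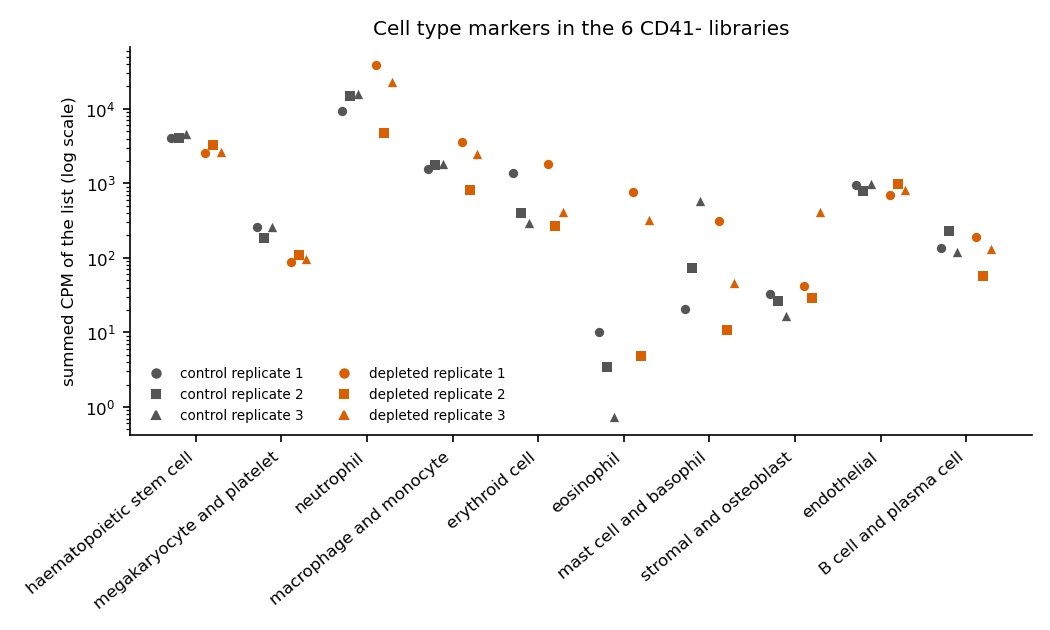
Summed TMM-scaled CPM of the genes of each marker list (log axis) in the 3 control and 3 depleted CD41- libraries. Stem cell markers were at 4010 to 4645 CPM in control and 2576 to 3243 CPM in depleted libraries. Neutrophil and eosinophil markers were highest in depleted replicates 1 and 3 and low in depleted replicate 2.

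Genes of mitosis were the group with the largest share of changed members, 91.3% against 3.19% of all genes tested. Their median log2 fold change was 1.53, against -0.03 over all genes, and 45 of 46 had a positive fold change (47.7% of all genes tested did). Summed over the list, the level was 3431, 3439 and 2799 CPM in the control libraries and 8979, 8352 and 9303 CPM in the depleted ones. Depleted replicate 2, which had the lowest neutrophil, macrophage and eosinophil markers of its group, also had the lowest mitosis sum of its group. That sum was above those of the control libraries. The highest mitosis sum was in depleted replicate 3, whose neutrophil markers (22710 CPM) were below those of depleted replicate 1 (39230 CPM). Whether transcripts of other cells had a part in the mitosis levels was not tested. With each of the 6 libraries left out in turn, between 37 and 41 of the 46 passed, and with DESeq2 and limma voom 45 and 44.

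Promoter sequences of 3 of these genes are shown because the genes rose together and a sequence element shared by their promoters is well known. Many promoters of G2 and M phase genes carry CCAAT boxes, bound by the factor NF-Y, and a cell cycle homology region with the core TTTGAA, bound by the DREAM and MYB-MuvB complexes. The 250 bases before the annotated start were read from RefSeq for GRCm38.p6. Capitals mark every match to CCAAT or TTTGAA on either strand.
Ccnb2, chr9:70421555-70421804, minus strand: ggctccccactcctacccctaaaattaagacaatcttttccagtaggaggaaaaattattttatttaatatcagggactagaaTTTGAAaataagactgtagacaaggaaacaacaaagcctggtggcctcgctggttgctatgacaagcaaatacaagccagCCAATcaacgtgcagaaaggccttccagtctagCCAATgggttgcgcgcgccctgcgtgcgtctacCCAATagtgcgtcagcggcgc
Prc1, chr7:80294201-80294450, plus strand: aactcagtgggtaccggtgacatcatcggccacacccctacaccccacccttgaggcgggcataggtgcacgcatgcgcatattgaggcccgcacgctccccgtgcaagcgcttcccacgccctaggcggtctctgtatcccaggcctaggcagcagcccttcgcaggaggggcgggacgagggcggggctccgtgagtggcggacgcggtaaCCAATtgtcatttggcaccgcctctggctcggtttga
Nusap1, chr2:119618048-119618297, plus strand: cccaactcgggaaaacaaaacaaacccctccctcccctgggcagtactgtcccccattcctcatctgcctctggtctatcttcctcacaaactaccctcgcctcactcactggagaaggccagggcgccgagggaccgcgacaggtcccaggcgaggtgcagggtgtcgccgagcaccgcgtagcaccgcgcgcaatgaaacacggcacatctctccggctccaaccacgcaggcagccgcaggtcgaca

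The Ccnb2 window held CCAAT at 3 places, starting -87, -54 and -21 bases from the annotated start, and TTTGAA at -167. Prc1 held a single CCAAT at -37, and Nusap1 held neither. The Prc1 window ends in tttga, so a TTTGAA that crosses its end would not be counted. Cdca8, described below, is not shown. Its RefSeq start lay 2394 bases from the GENCODE one, and its window held CCAAT on the opposite strand at -85, -51 and -11. Of the 46 mitosis genes, 40 matched an entry of the promoter table, and CCAAT on either strand was in 75% of them, against 35.4% of the 19768 mouse promoters in the table. At least 2 CCAAT were in 50% of the mitosis promoters and in 11.3% of all. TTTGAA was in 37.5% of the mitosis promoters and in 15.1% of all. When the whole entry of 300 bases was read, which also takes in the bases just after the start, these 2 shares were 72.5% and 16.6% (a window chosen after the values were seen). Of the replication genes 32 of 38 matched, with CCAAT in 62.5% and TTTGAA in 12.5%. GGCGGGAA, a form of the E2F element known from S phase genes, was in 12.5% of the replication promoters, 0% of the mitosis promoters and 2.35% of all. In promoters of the genes tested here, CCAAT was in 36.5%, TTTGAA in 10.9% and GGCGGGAA in 3.58%. These are matches of letters and not measured binding.

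Ccnb2 (ENSMUSG00000032218, GRCm38 chromosome 9, 70407692 to 70421547, minus strand), the mitotic cyclin B2, stood at 122.9, 114.1 and 86.1 CPM in control and 371.6, 345.1 and 392.6 CPM in depleted libraries. The lowest depleted library was thus well above the highest control one, and the rise was 3.43-fold (log2 1.78 ± 0.17, adjusted p = 0.000166). Cdca8 (ENSMUSG00000028873, chromosome 4, 124918465 to 124939311, minus strand), which encodes the borealin subunit of the chromosomal passenger complex, had 55.6, 74.1 and 71.0 CPM in control and 240.7, 210.5 and 244.1 CPM in depleted libraries. The groups were far apart, and the gene shared the smallest adjusted p of the comparison with Socs2 (log2 1.79 ± 0.16, adjusted p = 9.49e-05). Nusap1 (ENSMUSG00000027306, chromosome 2, 119618298 to 119651244, plus strand), which bundles spindle microtubules, went from 68.8, 95.5 and 47.7 CPM to 321.9, 262.2 and 342.2 CPM (log2 2.13 ± 0.22, adjusted p = 0.000316). Prc1 (ENSMUSG00000038943, chromosome 7, 80294450 to 80316259, plus strand), which links antiparallel microtubules at the midzone, went from 102.6, 97.6 and 89.5 CPM to 306.6, 297.4 and 285.7 CPM (log2 1.62 ± 0.17, adjusted p = 0.000316). All 4 genes passed in each of the 6 analyses without 1 library.

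Genes that act at successive steps of cell division rose. Among spindle motors and their partners, Kif4, the chromokinesin, went from 13.5, 14.4 and 19.7 CPM to 76.4, 78.8 and 79.5 CPM (log2 2.30 ± 0.34, adjusted p = 0.00243). Hmmr, which helps assemble the spindle and is also known as a hyaluronan receptor, had the largest rise of the list that passed, from 25.0, 27.0 and 13.1 CPM to 131.9, 113.7 and 124.9 CPM (log2 2.51 ± 0.31, adjusted p = 0.000801). The groups of both genes lay far apart. Tpx2, the activator of Aurora A at the spindle, rose by 2.14 (adjusted p = 0.000614), and Aurka itself by 1.35 (adjusted p = 0.00477). Among kinetochore and checkpoint genes, Ndc80 rose by 1.65 (adjusted p = 0.00163), Bub1 by 1.98 (adjusted p = 0.00154) and Mad2l1 by 1.42 (adjusted p = 0.00361). The regulators of entry into mitosis rose too, with Cdk1 at 1.19, its partner Ccnb1 at 1.55 and the kinase Plk1 at 1.72. So did those of exit, with the anaphase activator Cdc20 at 1.56 and the ubiquitin-conjugating enzyme Ube2c at 1.65. Subunits of condensin, which compacts chromosomes, rose by 0.99 (Smc2), 1.17 (Smc4), 1.23 (Ncapg), 1.40 (Ncapd2) and 1.56 (Ncaph).

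The 4 mitosis genes that did not pass were of different kinds. Mki67, the gene of the proliferation antigen Ki-67, had 27.2, 8.11 and 32.1 CPM in control and 116.6, 88.8 and 121.6 CPM in depleted libraries. Its groups did not overlap and its fold change was large, but the spread was also large (log2 2.27 ± 0.61, adjusted p = 0.0817). Cenpe, a kinetochore motor, was similar (1.50 ± 0.44, adjusted p = 0.0885), and the checkpoint gene Bub3 changed less (0.52 ± 0.14, adjusted p = 0.0659). Pttg1, the gene of securin, was the only member with a negative fold change and with overlapping groups (log2 -0.06 ± 0.25, adjusted p = 0.939).

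**Figure D3:**
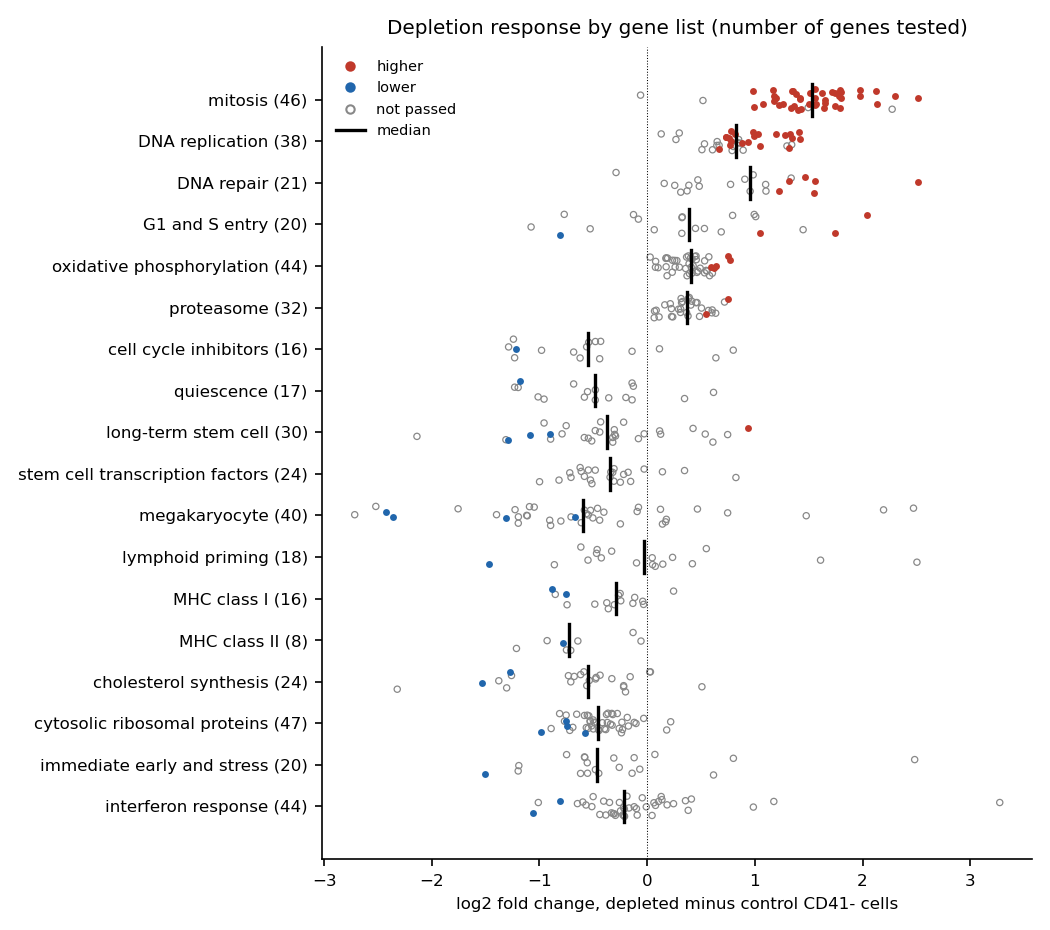
Log2 fold change of depleted minus control CD41- cells (x axis) for each tested gene of 18 gene lists, with genes that passed as higher (red) or lower (blue), others open, and the list median as a bar. The mitosis list has 42 of 46 genes higher and a median of 1.53, the replication list 21 of 38 and 0.83.

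Among DNA replication genes the changes were smaller. Fold changes were positive for all 38 genes (median 0.83), and in 35 of them all depleted libraries were above all control libraries. Rrm1 (ENSMUSG00000030978, chromosome 7, 102441695 to 102469771, plus strand), the large subunit of ribonucleotide reductase, which makes the deoxynucleotides for DNA, stood at 365.8, 414.1 and 335.2 CPM in control and 971.7, 978.2 and 826.1 CPM in depleted libraries. The rise was 2.49-fold (log2 1.32 ± 0.15, adjusted p = 0.000424). Tk1, the S phase thymidine kinase, went from 73.7, 68.1 and 42.6 CPM to 157.6, 169.2 and 140.7 CPM (log2 1.34 ± 0.20, adjusted p = 0.00198). Mcm5, a subunit of the replicative helicase, went from 270.6, 279.3 and 173.4 CPM to 508.4, 517.7 and 452.2 CPM (log2 1.03 ± 0.18, adjusted p = 0.0057). Of the 6 subunits of that helicase, Mcm3 to Mcm7 passed at 0.73 to 1.03, and Mcm2 did not (0.61 ± 0.17, adjusted p = 0.0748). The clamp loader subunit Rfc5 rose by 0.94 and Tyms, thymidylate synthase, by 1.32. Pcna, the sliding clamp, missed the threshold with groups that did not overlap (0.67 ± 0.18, adjusted p = 0.0581).

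The count for this list moved when a library was left out. It was 10 without control replicate 2, control replicate 3 or depleted replicate 2, 13 without depleted replicate 3, 8 without depleted replicate 1 and 20 without control replicate 1. The median stayed between 0.69 and 0.98. Rrm1, Tk1, Mcm5 and Rfc5 passed in each of these analyses. The summed level of the list was 5807, 5277 and 4380 CPM in control and 9917, 9816 and 8556 CPM in depleted libraries.

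Of 21 genes of DNA repair, 6 were higher and 0 lower (28.6%, against 3.19% of all genes tested). Fancd2 (ENSMUSG00000034023, chromosome 6, 113531682 to 113597017, plus strand), the central protein of the Fanconi anaemia pathway for crosslinked DNA, had 5.23, 7.07 and 5.11 CPM in control and 36.1, 33.1 and 30.3 CPM in depleted libraries. It was close to 6 CPM in every control library and above 30 CPM in every depleted one, a 5.70-fold rise (log2 2.51 ± 0.40, adjusted p = 0.00346). The nuclease gene Exo1 rose by 1.46 (adjusted p = 0.00269) and H2afx, the histone variant that marks DNA breaks when phosphorylated, by 1.22 (adjusted p = 0.00163). These 3 passed in each analysis without 1 library. Of 17 targets of p53, 1 was higher and 0 lower (5.9%). That gene was Gtse1, which is also a protein of G2 and S phase, at 8.53, 8.11 and 7.30 CPM in control and 39.0, 36.2 and 40.9 CPM in depleted libraries (log2 2.28 ± 0.27, adjusted p = 0.000626). The p53 targets Cdkn1a (-0.98 ± 0.51, adjusted p = 0.354) and Mdm2 (-0.29 ± 0.21, adjusted p = 0.534) did not pass.

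Genes on the list of G1 and S phase entry, which also holds genes of later phases, moved in both directions. Of 20 genes of G1 and S phase entry, 3 were higher and 1 lower (20.0%, against 3.19% of all genes tested). Foxm1, the transcription factor that drives G2 and M phase genes, went from 6.88, 5.24 and 7.30 CPM to 24.5, 29.5 and 26.3 CPM (log2 2.04 ± 0.37, adjusted p = 0.00712). E2f8, a repressor of the E2F family that is itself made in S phase, rose by 1.74 (adjusted p = 0.00699) and the S phase cyclin Ccne2 by 1.04 (adjusted p = 0.0118, and 0.0601 without depleted replicate 1). Cdk6, the G1 kinase that sets how readily stem cells leave rest, was lower instead, with 172.4, 185.6 and 194.3 CPM in control and 125.8, 84.8 and 103.3 CPM in depleted libraries (log2 -0.81 ± 0.17, adjusted p = 0.0172). Its call was lost without control replicate 3 (adjusted p = 0.0623), depleted replicate 2 (0.0758) and depleted replicate 3 (0.0815). The D cyclins that pair with Cdk6 did not pass, with Ccnd1 at -1.08 (adjusted p = 0.161) and Ccnd2 at -0.77 (adjusted p = 0.056).

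Of 16 inhibitors and brakes of the cell cycle, 1 was lower and 0 higher (6.2%, against 3.19% of all genes tested). They had 13 negative fold changes (52.2% of all genes tested had one) and a median of -0.55. The one that fell was Gas5, a noncoding RNA that hosts small nucleolar RNAs and accumulates in arrested cells, from 1307, 1648 and 1461 CPM to 642, 618.4 and 643.7 CPM (log2 -1.21 ± 0.28, adjusted p = 0.032). Its groups lay far apart, yet the call was lost in each of the 6 analyses without 1 library (adjusted p = 0.0571 to 0.12). The inhibitor p27, encoded by Cdkn1b, did not pass (22.3, 11.8 and 18.2 CPM in control, 6.62, 8.80 and 6.86 CPM in depleted libraries, log2 -1.23 ± 0.50, adjusted p = 0.223). Among 17 genes tied to quiescence, 1 was lower and 0 higher (5.9%), with a median of -0.48. Txnip (ENSMUSG00000038393, chromosome 3, 96557957 to 96561883, plus strand), which binds thioredoxin and limits glucose uptake, stood at 533.2, 726.1 and 718.0 CPM in control and 289.7, 299.3 and 281.2 CPM in depleted libraries. The 3 depleted values had an SD of 9.05 CPM, and the fall was 2.27-fold (log2 -1.18 ± 0.21, adjusted p = 0.00637) and passed without each library. The summed level of the quiescence list was 1521 to 1786 CPM in control and 891 to 999 CPM in depleted cells.

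**Figure D4:**
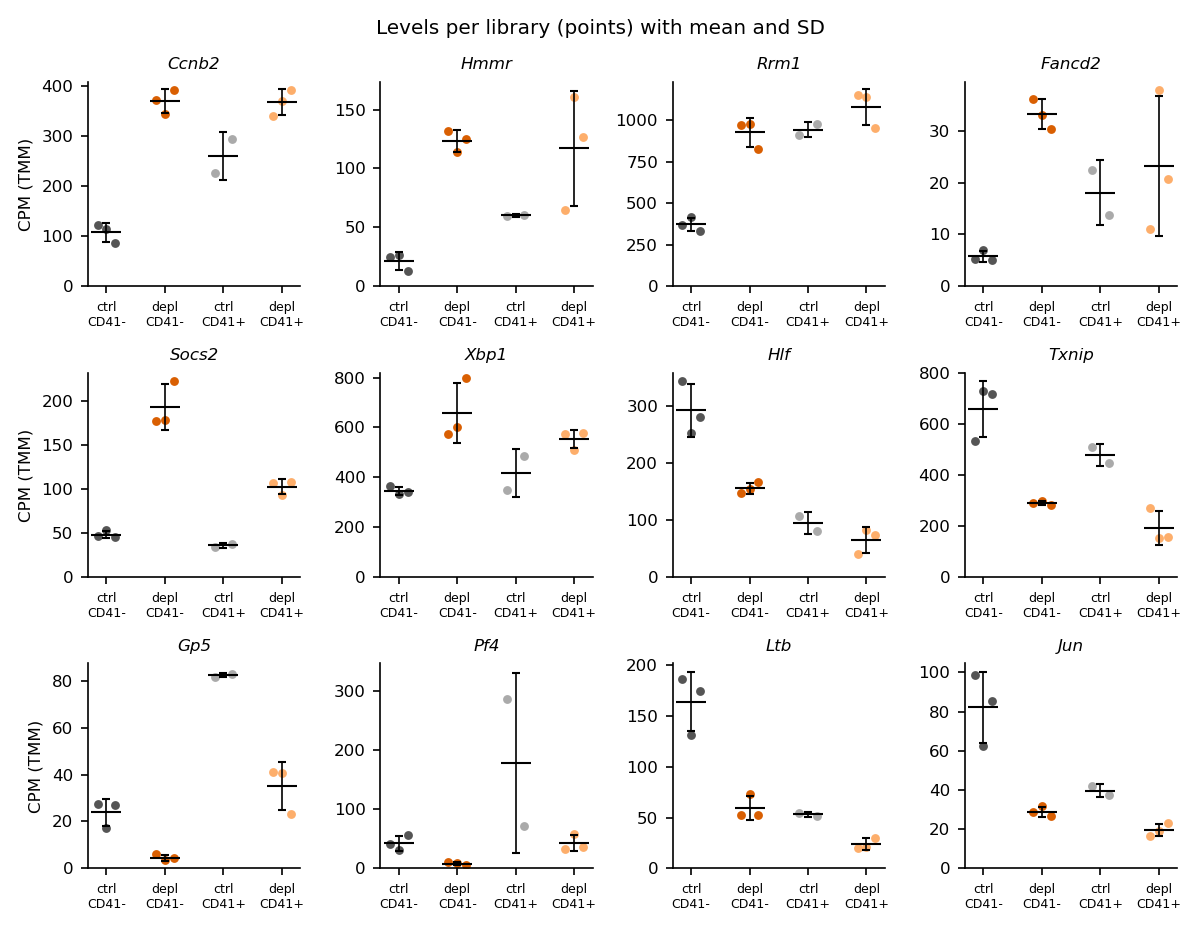
TMM-scaled CPM of 12 genes in each library (points), with mean and SD as bars, for control and depleted CD41- cells and, for comparison, CD41+ cells. In CD41- cells the groups of all 12 genes lie apart, with Ccnb2, Hmmr, Rrm1, Fancd2, Socs2 and Xbp1 higher and Hlf, Txnip, Gp5, Pf4, Ltb and Jun lower after depletion.

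Signalling genes were then read for the cytokine pathway of platelet production. The median of 25 genes of thrombopoietin and JAK-STAT signalling was -0.16. Of these, 1 was higher and 0 lower, a share of 4.0%, near the 3.19% of all genes tested. The gene was Socs2 (ENSMUSG00000020027, chromosome 10, 95385362 to 95417180, minus strand), a target of STAT5 that dampens cytokine signals, with 46.2, 53.1 and 45.7 CPM in control and 176.4, 178.0 and 222.3 CPM in depleted libraries. Each depleted library was more than 3 times as high as any control library (log2 1.99 ± 0.17, adjusted p = 9.49e-05). Other STAT5 targets did not pass, with Cish at 0.56 ± 0.24 (adjusted p = 0.253), Pim1 at -0.70 ± 0.48 (adjusted p = 0.509) and Bcl2l1 at 0.44 ± 0.26 (adjusted p = 0.413).

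In other signalling lists few genes passed. The shares were 3.3% for insulin and PI3K, 7.1% for ERK feedback and 4.5% for TGF-beta and BMP. Over all genes tested the share was 3.19%. Of 23 receptor tyrosine kinases 0 passed in edgeR, DESeq2 or limma voom, and 1 had an unadjusted p under 0.05 in edgeR. Pik3ip1, an inhibitor of PI3 kinase, was the 1 of 30 insulin and PI3K genes to change, from 288.5, 274.3 and 522.9 CPM to 158.2, 163.1 and 135.3 CPM (log2 -1.25 ± 0.22, adjusted p = 0.00683). Dusp6, a phosphatase that limits ERK, was lower by -0.78 (adjusted p = 0.0363, kept in 1 of 6 analyses without 1 library, and 0.0746 to 0.143 in the rest). Among 22 genes of TGF-beta and BMP signalling Id1, a target of BMP that blocks differentiation factors, was higher, from 11, 6.02 and 3.65 CPM to 21.8, 19.5 and 33.8 CPM (log2 1.86 ± 0.43, adjusted p = 0.0307). It kept its call in 2 of 6 analyses without 1 library (0.0771 to 0.144 in the rest).

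Megakaryocyte genes that passed in edgeR were lower. Of 40 tested, 4 were lower and 0 higher (10.0%, against 3.19% of all genes tested), 31 had negative fold changes, and the median was -0.60. Gp5 (ENSMUSG00000047953, chromosome 16, 30307685 to 30310779, minus strand), part of the platelet complex that binds von Willebrand factor, had 27.2, 17.3 and 27.0 CPM in control and 5.91, 3.35 and 4.26 CPM in depleted libraries, a 5.15-fold fall (log2 -2.36 ± 0.33, adjusted p = 0.00147). Pf4, the chemokine of platelet granules, had 41.0, 31.2 and 56.2 CPM in control and 9.98, 8.17 and 5.203 CPM in depleted libraries (log2 -2.42 ± 0.47, adjusted p = 0.0144). In both genes every depleted library lay below every control one. The Pf4 call was lost without control replicate 3 (adjusted p = 0.0707), depleted replicate 2 (0.0546) and depleted replicate 3 (0.0766), while that of Gp5 held in all 6 analyses. Ctla2a, a cathepsin inhibitor found in stem cells and megakaryocytes, went from 245.9, 284.3 and 243.9 CPM to 106.2, 100.3 and 105.9 CPM (log2 -1.31 ± 0.23, adjusted p = 0.00557).

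Nfe2, the transcription factor needed for platelet release, was lower by -0.67 ± 0.15 (adjusted p = 0.0282, and 0.0835 to 0.157 without control replicate 1, control replicate 3, depleted replicate 1 or depleted replicate 3). Treml1 (-1.76 ± 0.50, adjusted p = 0.0796) and Plek (-1.23 ± 0.34, adjusted p = 0.078) had groups that did not overlap and did not pass. The number of lower genes on the list was 7 without control replicate 2 and 2 without control replicate 3 or depleted replicate 3. It was 10 with DESeq2 and 6 with limma voom. The megakaryocyte and platelet markers, 11 genes that overlap with this list, summed to 263.7, 186.4 and 258.8 CPM in control and 87.4, 111.0 and 96.3 CPM in depleted libraries. Of 23 genes of platelet granules and cytoskeleton, 1 was higher and 0 lower (4.3%, against 3.19% of all genes tested). It was Clu, a chaperone that platelets store and that many other cells make, at 11.6, 14.7 and 24.3 CPM in control and 34.0, 35.2 and 52.97 CPM in depleted libraries (log2 1.26 ± 0.27, adjusted p = 0.0213). Without control replicate 1, control replicate 2 or depleted replicate 3 its adjusted p was 0.0757, 0.071 and 0.111.

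Of the stem cell genes that passed, most were lower. Of 30 genes of long-term stem cells, 3 were lower and 1 higher (13.3%, against 3.19% of all genes tested). DESeq2 had 7 lower and 1 higher, and limma voom 8 and 1. In edgeR 23 fold changes were negative, and the median was -0.38. Sult1a1, a sulfotransferase, went from 79.2, 90.3 and 91.5 CPM to 37.1, 42.1 and 27.2 CPM (log2 -1.29 ± 0.21, adjusted p = 0.0034). Pdzk1ip1, a small membrane protein that marks stem cells, went from 188.4, 197.6 and 183.6 CPM to 97.8, 88.6 and 82.1 CPM (log2 -1.08 ± 0.20, adjusted p = 0.00871, and 0.0578 without depleted replicate 3). In both genes control libraries were alike and about 2 times the depleted ones. Hlf, a transcription factor of stem cell identity, had 342.7, 251.5 and 280.9 CPM in control and 146.8, 154.3 and 166.3 CPM in depleted libraries (log2 -0.91 ± 0.22, adjusted p = 0.0367). Its call held in 1 of 6 analyses without 1 library (0.0845 to 0.146 in the rest). Ifitm1, an interferon-induced membrane protein that is also high in stem cells, went the other way, from 935.3, 1409 and 1249 CPM to 2160, 2491 and 2227 CPM (log2 0.94 ± 0.19, adjusted p = 0.0159), and likewise held in 1 of 6 (0.0504 to 0.0704 in the rest).

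Of 24 transcription factors of stem cells, 0 passed in edgeR, with 6 lower and 0 higher at an unadjusted p under 0.05, and 2 were lower in DESeq2 and in limma voom. Meis1, a homeobox factor, stood at 473.3, 426.7 and 462.6 CPM in control and 294.6, 361.7 and 276.7 CPM in depleted libraries (log2 -0.55 ± 0.15, adjusted p = 0.0719). Lyl1, a partner of Tal1 in the same regulatory complex, had -0.72 ± 0.20 (adjusted p = 0.0723). Of 25 erythroid genes and 21 myeloid priming genes 0 passed in edgeR, DESeq2 or limma voom. At an unadjusted p under 0.05 edgeR had 2 erythroid genes higher and 1 lower, and 0 myeloid ones. The myeloid median of 0.31 was -0.01 without control replicate 1 and -0.05 without depleted replicate 1. Of 18 lymphoid priming genes 1 was lower (5.6%, against 3.19% of all genes tested). Ltb, the membrane-bound lymphotoxin beta, had 186.2, 131.1 and 174.4 CPM in control and 52.8, 72.7 and 52.3 CPM in depleted libraries (log2 -1.47 ± 0.21, adjusted p = 0.00198), and passed in all 6 analyses without 1 library.

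Antigen presentation and inflammatory genes that passed were all lower. Of 16 genes of MHC class I presentation, 2 were lower, and of 8 of class II, 1 (12.5% each, against 3.19% of all genes tested). H2-Q6, a nonclassical class I gene, had 336.1, 329.3 and 353.6 CPM in control and 180.3, 201.3 and 170.5 CPM in depleted libraries (log2 -0.88 ± 0.14, adjusted p = 0.00269). The class I genes of this cluster are near-identical copies, so reads could be split between them. H2-T23, which encodes the ligand of inhibitory receptors on natural killer cells, went from 614.9, 699.9 and 517.6 CPM to 311.2, 383.7 and 390.7 CPM (log2 -0.76 ± 0.15, adjusted p = 0.0141, and 0.103 without depleted replicate 1 and 0.0509 without control replicate 2). H2-DMa, which loads peptides on class II, was lower by -0.78 ± 0.16 (adjusted p = 0.0154). It lost the call without control replicate 2 (0.0568), depleted replicate 1 (0.098) and depleted replicate 3 (0.07).

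Among 44 genes of the interferon response, 2 were lower, or 4.5%. The shares were 5.0% for the immediate early and 4.5% for the NF-kB genes below, against 3.19% of all genes tested. Ifi44 stood at 157.3, 314.4 and 175.6 CPM in control and 80.8, 96.3 and 134.1 CPM in depleted libraries (log2 -1.06 ± 0.25, adjusted p = 0.0363), and Trim30a at 203.2, 244.7 and 190.4 CPM against 106.9, 115.8 and 141.7 CPM (log2 -0.81 ± 0.19, adjusted p = 0.0349). Control replicate 2 was the highest library for both. Trim30a lost its call in each of the 6 analyses without 1 library (0.0567 to 0.165), and Ifi44 in 3 of them (0.118 to 0.166). The median of the list, -0.21 with all libraries, was 0.02 without control replicate 2, -0.04 without depleted replicate 1 and -0.06 without depleted replicate 2, and none of its genes passed without control replicate 2, depleted replicate 1 or depleted replicate 2. Among 20 immediate early genes 1 was lower, the AP-1 subunit Jun, from 98.5, 62.6 and 85.4 CPM to 28.5, 31.6 and 26.5 CPM (log2 -1.51 ± 0.23, adjusted p = 0.00269). Its groups did not overlap and the call held in all 6 analyses. Of 22 NF-kB genes 1 was lower, Nfkbia, the inhibitor that NF-kB itself induces, at -0.77 ± 0.16 (adjusted p = 0.0172, and 0.0723, 0.0936 and 0.0801 without control replicate 3, depleted replicate 1 and depleted replicate 2).

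In lists of the cell's basic machinery most members had the same sign and small fold changes. The shares that passed were 11.4% of oxidative phosphorylation, 6.2% of proteasome and 8.5% of ribosomal protein genes, against 3.19% of all genes tested. The 44 nuclear genes of oxidative phosphorylation all had positive values, with a median of 0.41, and 5 were higher. Cox6a1, a subunit of cytochrome c oxidase, went from 210.1, 221.7 and 172.4 CPM to 322.8, 342.8 and 363.7 CPM (log2 0.77 ± 0.16, adjusted p = 0.0158). The count was 4 without control replicate 2, 1 without control replicate 1 and 0 without any of the other 4 libraries, while the median stayed between 0.31 and 0.49. The 32 proteasome genes were positive as well, with a median of 0.37 and 2 higher, Psmc1 at 0.75 (adjusted p = 0.023) and Psmc3 at 0.55 (adjusted p = 0.0431). That count was 0 without control replicate 3, depleted replicate 1 or depleted replicate 3 and 1 otherwise.

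Of ribosomal protein genes 45 of 47 had negative fold changes, with a median of -0.45, and 4 were lower, namely Fau, Rpl13, Rps14 and Rps27. Rps27 had the largest fall of these, from 1577, 1991 and 2141 CPM to 928.8, 997.1 and 964.9 CPM (log2 -0.98 ± 0.24, adjusted p = 0.0368). Summed over the list, the level was 55630, 75520 and 52530 CPM in control and 46740, 43950 and 45750 CPM in depleted libraries, so control replicate 2 stood apart from the rest. Without it the median was -0.24 and 0 genes passed. Without any 1 of the 3 depleted libraries 0 passed as well, and 1 and 3 passed without control replicates 3 and 1. Ribosomal proteins have many processed pseudogenes with near-identical sequence, so their counts are less certain. Of 40 MYC targets and genes of ribosome biogenesis 0 passed in edgeR, with 11 higher and 1 lower at an unadjusted p under 0.05, and 2 higher and 1 lower in DESeq2. Of 9 mitochondrially encoded genes 0 passed in edgeR and limma voom, with 1 lower in DESeq2 and 1 at an unadjusted p under 0.05. Of 8 imprinted genes, some of which are known to hold stem cells at rest, 0 passed in any of the 3 tools or at an unadjusted p under 0.05.

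Of 24 genes of cholesterol synthesis and uptake 2 were lower (8.3%, against 3.19% of all genes tested) and 21 had negative fold changes, with a median of -0.55. Insig1, the sterol sensor that retains SREBP in the endoplasmic reticulum, went from 82.0, 141.3 and 97.3 CPM to 40.4, 48.8 and 43.3 CPM (log2 -1.28 ± 0.28, adjusted p = 0.0232). The sterol oxidase Msmo1 went from 207.6, 301.0 and 136.2 CPM to 93.7, 48.0 and 80.9 CPM (log2 -1.53 ± 0.36, adjusted p = 0.0378). Depleted libraries lay below all control libraries for both, and each call held in 1 of 6 analyses without 1 library (0.0511 to 0.112 and 0.0704 to 0.131 in the rest). Of 24 genes of the unfolded protein response 2 were higher (8.3%, against 3.19% of all genes tested). Xbp1, its transcription factor, stood at 365.8, 335.0 and 339.8 CPM in control and 573.9, 601.5 and 796.5 CPM in depleted libraries (log2 0.92 ± 0.17, adjusted p = 0.0077, and 0.055 without depleted replicate 3). The other, Asns, kept its call in 2 of 6 analyses without 1 library (edgeR adjusted p = 0.108 to 0.155 in the rest). The stress gene Ddit3 of the same list did not pass (-1.15 ± 0.35, adjusted p = 0.098). At an unadjusted p under 0.05 edgeR had 4 genes of this list higher and 4 lower. DESeq2 called 2 higher and 3 lower. Of 22 glycolysis genes 1 was higher, the phosphofructokinase Pfkp, and 1 lower, the aldolase Aldoc (9.1%, against 3.19% of all genes tested). Neither passed in any of the 6 analyses without 1 library (0.0802 to 0.178 and 0.0511 to 0.168). In edgeR, DESeq2 and limma voom 0 of 21 apoptosis genes passed (1 at an unadjusted p under 0.05 in edgeR).

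Entries not annotated as protein coding made up 13.3% of the lower genes and 2.59% of the higher ones, against 11.6% of all genes tested. Among them 2410006H16Rik (ENSMUSG00000086841, chromosome 11, 62602877 to 62604807, plus strand) had 182.3, 250.0 and 285.3 CPM in control and 55.7, 58.6 and 54.9 CPM in depleted libraries (log2 -2.08 ± 0.22, adjusted p = 0.000316). The long intergenic RNA Gm19590 had 137.0, 153.9 and 180.2 CPM in control and 46.2, 48.0 and 31.0 CPM in depleted libraries (log2 -1.91 ± 0.23, adjusted p = 0.000626). Both held in all 6 analyses without 1 library, and in both the 3 depleted libraries lay far below the controls. Malat1, an abundant nuclear RNA, had the largest fall of the named genes, from 2702, 2979 and 1455 CPM to 476.7, 151.4 and 329.4 CPM. It was 1 of 2 lower genes among 5 nuclear long noncoding RNAs, against 3.19% of all genes tested that passed. The number of lower genes on this list was 1 without control replicate 1 or control replicate 3. It was 0 without control replicate 2 or any 1 of the depleted libraries. The libraries of Malat1 varied widely within each group (log2 -2.90 ± 0.60, adjusted p = 0.0385), and its call was lost without any 1 of the 6 libraries (0.0647 to 0.157). Since the sources used here do not say whether strand was used in counting, values of antisense and overlapping genes are less certain than the rest.

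Several of the largest changes lay outside the lists. The kinetochore subunit Zwilch went from 4.40, 6.81 and 0.243 CPM to 27.4, 27.0 and 35.0 CPM (log2 2.97 ± 0.59, adjusted p = 0.0134, and 0.0553 without depleted replicate 3). Myh10, the heavy chain of nonmuscle myosin IIB, which megakaryocytes switch off as they become polyploid, went from 5.23, 2.36 and 5.35 CPM to 18.6, 23.5 and 17.0 CPM (log2 2.18 ± 0.42, adjusted p = 0.0112). Cox4i2, an isoform of a cytochrome c oxidase subunit, went from 5.78, 3.67 and 2.43 CPM to 15.3, 23.5 and 22.9 CPM (log2 2.37 ± 0.41, adjusted p = 0.00543). In these 3 genes the lowest depleted library was above the highest control library by more than 9 CPM. Dlgap5, a spindle protein, rose by 2.37 (adjusted p = 0.00147). Lrrc56, the largest increase among genes that passed with at least 5 CPM on average, was at 0 in control replicates 2 and 3 and 1.93 CPM in replicate 1 against 8.86, 10.5 and 10.2 CPM, and kept its call in 1 of 6 analyses without 1 library (0.0996 to 0.121 in the rest). Epcam, an adhesion molecule, rose by 2.17 and Col18a1, a collagen, by 2.43, with calls kept in 2 of 6 (0.0699 to 0.129 and 0.0838 to 0.108 in the rest). Among decreases, the ephrin gene Efnb1 (-2.45), the sorting nexin Snx29 (-2.62) and the histone demethylase Kdm6b (-1.85) had calls kept in 1, 1 and 0 of 6 (0.0593 to 0.155, 0.0588 to 0.188 and 0.0628 to 0.177 in the rest).

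The same contrast in CD41+ cells, which used other libraries, gave 14 genes (0.104% of those tested), with 3 depleted against 2 control libraries. Of these 14, 12 were also among the 429 of CD41- cells, with the same sign. The labels do not say whether both fractions came from the same mice. Neutrophil markers were at 26000 and 90170 CPM in the control CD41+ libraries and at 54020, 16260 and 54330 CPM in the depleted ones, above most CD41- libraries, and their part in these values was not tested. The 12 included Socs2, which went from 34.5 and 38.2 CPM to 106.8, 93.1 and 108.1 CPM in CD41+ cells (log2 1.49 ± 0.20, adjusted p = 0.0228), Txnip (-1.32, adjusted p = 0.0454), H2-Q6 (-0.92, adjusted p = 0.0312) and H2-T23 (-1.17, adjusted p = 0.0228). Myh10 (3.89, adjusted p = 0.0228) and Podxl, a sialomucin of blood progenitors and endothelium (2.99 in CD41+ and 2.14 in CD41- cells), were higher in both. Of the 309 genes higher in CD41- cells, 279 (90.3%) had positive fold changes in CD41+ cells, with a median of 0.42, where 49.5% of all genes did. Of the 120 lower genes, 115 (95.8%) were negative, with a median of -0.79.

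For mitosis genes the level in control cells already differed between the fractions. In CD41- cells their sum was 2799 to 3439 CPM in control and 8352 to 9303 CPM in depleted libraries. In CD41+ cells it was 6362 and 6859 CPM in control and 8774 to 10290 CPM in depleted libraries. The 2 depleted groups thus overlapped, and the 2 control groups did not. The median fold change of the list was 1.53 in CD41- and 0.53 in CD41+ cells. For replication genes it was 0.83 and 0.13, and for Rrm1 control CD41+ libraries stood at 908.4 and 976.1 CPM, within the range of 826.1 to 978.2 CPM of depleted CD41- libraries.

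Whether the responses of the fractions differed was tested gene by gene as the difference of the fold changes. In edgeR 0 genes passed (0.0%), with 825 at an unadjusted p under 0.05 and a smallest adjusted p of 0.304. DESeq2 called 35 genes and limma voom 0 (905 and 903 at an unadjusted p under 0.05). Cdca8 differed by 1.19 ± 0.23, Ccnb2 by 1.28 ± 0.25, Rrm1 by 1.12 ± 0.22 and Cdca5, which protects cohesion of sister chromatids, by 1.81 ± 0.36, each larger in CD41- cells and each with an adjusted p = 0.304. The differences of Zfp608 (-3.32 ± 0.58) and Ubqln2 (-4.46 ± 0.88) had the opposite sign, with the same adjusted p. Both were low in control CD41+ cells, Zfp608 at 4.81 and 3.10 CPM.

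**Figure D5:**
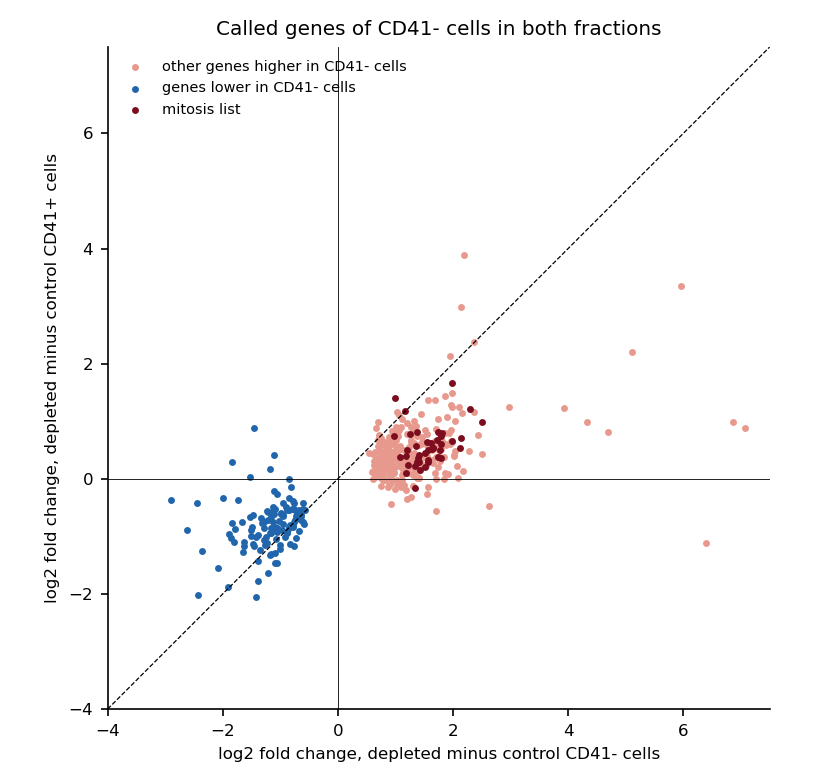
Log2 fold change after depletion in CD41- cells (x axis) and in CD41+ cells (y axis) for the 429 genes called in CD41- cells, with genes of the mitosis list in dark red and the line of equal change dashed. Most points have the same sign in both, and the mitosis genes shown lie mostly below the line. Over all 46 genes of that list the median was 1.53 in CD41- and 0.53 in CD41+ cells. The genes shown were chosen by their test in CD41- cells alone, so their place against the line tests no difference.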

How the data were processed

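RNA of 1000 sorted cells per library was reverse transcribed from the poly(A) tail with template switching, amplified over 17 PCR cycles, tagmented, indexed over 12 cycles and sequenced on an Illumina instrument, per the labels' protocols. Cutadapt, STAR and HTSeq 0.6.1p1 are the tools, and GRCm38 and mm10 the builds, that are named per the submitters' processing notes. The sources used here give no annotation release or strand setting. The deposited values are raw counts per gene made by the authors. Depth was 3459754 to 9950423 counts in the CD41- libraries and 974196 to 4984950 in the CD41+ libraries. Within a group, CD41- libraries correlated at 0.913 to 0.961 in log2 CPM and no pair agreed within counting noise, so none was treated as a library deposited in duplicate. The labels call them biological replicates.

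Symbols and gene coordinates came from GENCODE M21 (49326 of 49585 entries matched). Genes were kept by filterByExpr (minimum count 10, minimum total 15) over all 11 libraries, normalised by TMM and fitted in edgeR 4.0.16 (R 4.3.3) with 1 coefficient per group, so that all 4 groups share the estimate of the spread, with robust quasi-likelihood F tests of depleted against control CD41- cells, of the same in CD41+ cells, and of the difference of these responses, adjusted by Benjamini-Hochberg at 0.05. Each SE was taken as the size of the log2 fold change divided by the square root of F. The rule for named genes took 6 sort genes, 12 increases and 12 decreases of largest size among called genes with at least 5 CPM on average in the CD41- libraries and no overlap, up to 4 genes of smallest p per list, and 6 for the difference. Further members of a list are named to describe it, and were chosen after their values were seen. The members and the 35 lists of 860 genes were chosen with earlier results of these data known. As alternatives, the fit was repeated with RLE factors, with library size alone, without a filter, with a strict filter (at least 5 CPM in 3 libraries), without the robust step, with DESeq2 1.42.0, with limma 3.58.1 voom and quality weights, on the 6 CD41- libraries alone, and without each library in turn. The procedure was tested on simulated data. Promoters came from RefSeq (GRCm38.p6).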

Additional observations from a re-analysis of the deposited data

How the results depend on the processing

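The comparison of depleted and control CD41- cells gave 429 genes, 309 higher and 120 lower. Without a filter it gave 862, 616 and 246, and with DESeq2 851, 535 and 316. Limma voom with quality weights gave 281 lower genes. Of the 429 genes, 410 were shared with the unfiltered analysis, 424 with DESeq2 and 411 with limma voom. Leaving out 1 library at a time gave 169 to 319 genes, 143 to 239 of them higher and 26 to 80 lower. The count was 215 without control replicate 3, 175 without depleted replicate 1, 256 without depleted replicate 2 and 169 without depleted replicate 3. It was 312 and 319 without control replicates 1 and 2. Of the 429 genes, 139 passed in each of these 6 analyses, and of 76 named genes that passed, 31 did. No named gene changed sign between the main comparison and an alternative if it passed in either. Signs of genes that passed in neither were not compared. RLE factors, library size alone, the strict filter, the analysis without the robust step and the 6 CD41- libraries alone left the 3 counts within 1.5 times. The difference of responses, with 0 genes, gave 178 without a filter and 35 with DESeq2, and the cause of these larger counts was not tested. No paired analysis was possible because depleted and control pools came from different mice and the labels give them no shared replicate number. Genes at a few CPM are limited by depth, since 3 counts stood for up to 0.825 CPM.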

Other observations

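Of the 429 genes that changed in CD41- cells, 222 higher and 91 lower ones stood on none of the 35 gene lists. The genes below were named after their values were seen. Among the higher ones were the kinesin Kif22 (log2 1.55), the kinetochore subunit Spc24 (1.71), the cohesin protector Sgo1 (2.07) and the checkpoint kinase Ttk (1.51). Other single genes that rose were the histone variant H2afz (0.99), the histone chaperone Asf1b (1.38), the chromatin protein Hmgb2 (1.47), the folate enzyme Mthfd2 (1.63), the serine enzyme Shmt2 (0.77) and the nucleoporin genes Nup205 (1.22) and Nup85 (0.84). Slfn2, a gene whose loss breaks lymphocyte quiescence, was at 74.7 ± 13.6 CPM in control and 290.8 ± 87.5 CPM in depleted libraries (SD, n = 3, log2 1.96).

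Among the lower genes outside the lists, the noncoding host of small nucleolar RNAs Zfas1 had 119.9, 135.3 and 114.3 CPM in control and 49.7, 37.5 and 44.2 CPM in depleted libraries (log2 -1.49 ± 0.25, edgeR adjusted p = 0.00483). Sox6 (-1.74), a transcription factor, Rgs1 (-1.64), a regulator of G protein signalling, Pde4b (-1.47), a cyclic AMP phosphodiesterase, and Slc18a2 (-1.35), the monoamine transporter, were lower too. Ramp1, which makes a receptor for the neuropeptide CGRP, was lower in both fractions, by -1.005 in CD41- and -1.15 in CD41+ cells.

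Of the genes that passed, 4 had no count in the 3 control libraries. Against a floor of 3 counts over that group, Hs6st2 was at least 15.1-fold higher after depletion, Arc at least 12.9-fold, Nphp4 at least 9.24-fold and Fmo1 at least 7.17-fold.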
